A study of Sus scrofa with 189 samples.

Results

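Heat shock proteins and their DNAJ co-chaperones were followed across the back muscle of 189 pigs. The members were taken by name: every gene of the deposited table whose symbol begins with HSPA, HSPB, HSPD, HSPE, HSPH, HSP90 or DNAJ. That rule used no measured value and found 57 of 12651 genes, built from 101 listed transcripts. Of these, 54 averaged at least 0.5 FPKM and entered the tests among 10717 genes, and HSPA4L, DNAJC12 and DNAJC6 did not. The relative CRYAB was kept out by the rule. HSP90B1, DNAJB11, DNAJC4 and HSPA9 carry such a name in a reference gene table but none in the deposited table, so they are not members.

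Chaperones bind proteins that are unfolded or about to aggregate. The HSP70 proteins (HSPA) do this in cycles of ATP use that are started by J-domain proteins (DNAJ), and the released client can pass on to HSP90 or to a chaperonin. Small heat shock proteins (HSPB) hold clients without using ATP, and in muscle they are known from the Z-disc and the actin filaments, which bear mechanical load. Under stress, heat shock factors raise the transcription of many of these genes.

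The animals were F1 pigs of 8 Duroc boars and Luchuan sows, whose number is 158 in the design text and 112 in the growth protocol. They shared diet, farm and abattoir, were slaughtered at 210 ± 6 days of age, and the longissimus dorsi was sampled 25 min after death. Polyadenylated RNA was sequenced as 150-bp pairs, and the values are FPKM, fragments scaled to transcript length and library total. Intramuscular fat (IMF, unit not stated) was the only trait given, with values of 3.40 ± 1.13 (SD, n = 164) from 0.77 to 6.84.

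No animal was treated, so the labels give 4 groups. A title mark, re-analyzed, that is not explained sets 21 libraries apart, 11 of low IMF (up to 2.33) and 10 of high IMF (from 4.83). The unmarked libraries were 143 with and 25 without IMF. Titles also carry a numeric code of unstated meaning that starts with 15 in 69 animals and with 16 in 120, and whose first 9 digits are shared within 48 sets of 2 to 7 animals. Nothing says which animals share a parent or were processed together, so every animal counts as independent in the tests that leave the code out.

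The libraries summed to between 364109 and 465105 FPKM and held 7803 to 10614 genes at 1 FPKM or more. Library 39 correlated least with the others (median r 0.889). The skeletal muscle markers fitted the labelled tissue in every library: the lowest value in any animal was 4545 FPKM for ACTA1, 5562 for TNNT3, 5131 for MYLPF, 2566 for TNNI2, 1779 for CKM, 1224 for MYH2, 288 for MYH4 and 106 for MYH7. Depth is unknown because no counts were used here. In bulk muscle, fewer cells of a type and less RNA per cell cannot be told apart.

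The 57 genes together held between 0.348% and 3.65% of a library's FPKM, with a median of 0.816%. Small heat shock proteins took the largest share, a median of 0.397% of the library and up to 2.90%. HSP70 followed with a median of 0.130%, HSP90 with 0.0918%, the chaperonins with 0.0751%, DNAJB with 0.0514% and DNAJC with 0.0489%. By mean level, 6 members lay over 100 FPKM, 23 between 10 and 100, 23 between 1 and 10 and 5 under 1. The shares of the 4 groups overlapped widely.

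Among the small heat shock proteins, HSPB1 (HSP27, which guards actin filaments) was the most abundant gene of the whole family. It lies at chr3:10037946-10039704 on Sscrofa11.1 and measured 268 FPKM in the lowest animal, 1193 in the median and 10270 in the highest, and only 0.336% of tested genes had a higher mean. HSPB8, which works with BAG3 in clearing damaged muscle proteins (chr14:33622096-33640792), ran from 25.6 over 171 to 1340 FPKM. HSPB6 (HSP20) kept to a narrower range of 38.2 to 229 FPKM around a median of 89.9.

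HSPB7, a small heat shock protein of heart and skeletal muscle, spanned 17.6 to 359 FPKM with a median of 66.5. HSPB2 had a median of 46.7 FPKM (17.3 to 247) and its partner HSPB3 a median of 9.37 FPKM (4.33 to 27.4). All 6 small heat shock proteins varied more between animals than the median gene. HSPB2 lies on the opposite strand to CRYAB with 5025 shared bases, and strand use in counting is not stated, so reads of the pair cannot be told apart there. HSPB6 shares 5389 bases with LIN37 and HSPB1 1164 with an unnamed gene in the same way.

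In the HSP70 class, the constitutive HSPA8 (chr9:49978078-49988038) led by far, with 187, 465 and 1190 FPKM in the lowest, median and highest animal. HSPA5, the HSP70 of the endoplasmic reticulum (ER), was steadier at 15.1, 27.5 and 59.4 FPKM. HSPH1, an HSP110 protein that resets HSP70 by nucleotide exchange (chr11:7733878-7759528), had a lower median of 13.3 FPKM and the widest relative range of the tested members of the class, from 1.47 to 104 FPKM.

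Another HSP110 protein, HSPA4, measured 3.76 to 36.6 FPKM around 13.4. HSPA2 had a median of 6.05 FPKM and reached 28.3. The ribosome-bound HSPA14 (median 4.50 FPKM, highest 8.77) and HSPA12B (4.25 and 8.32), known from blood vessel cells, were lower. HSPA1L (0.850) was low, and it is nearly identical in sequence to the stress-induced HSPA1A and HSPA1B, not analysed here, so its reads are uncertain. HSPA4L averaged 0.286 FPKM.

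Both cytosolic HSP90 genes were abundant. HSP90AA1, the stress-induced form, ran from 91.1 over 283 to 994 FPKM, and HSP90AB1, the constitutive form, from 35.8 over 93.4 to 239 FPKM. HSP90AA1 exceeded HSP90AB1 in mean (324 against 101 FPKM). The most abundant listed transcript is 3049 bases long for HSP90AA1 and 6395 for HSP90AB1. FPKM is scaled to that length, and its part in the difference was not tested. Both overlap a gene on the other strand (WDR20 by 909 bases and SLC35B2 by 4548), and HSP90AA1 lies on an unplaced scaffold.

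The mitochondrial chaperonin is built from HSPD1 (HSP60) and its lid HSPE1 (HSP10), whose genes stand head to head on chromosome 15 with 97 bases between them. HSPE1 had a median of 281 FPKM (103 to 609) and HSPD1 a median of 37.9 FPKM (5.50 to 96.2). HSPD1 shares 17149 bases with COQ10B on the other strand and 16557 with SF3B1 on its own, which makes part of its level uncertain. Its listed transcript with the lowest start (101321360) held 7.61% of its mean level, and the others start at 101356203 or later. HSPD1 and HSPE1 correlated between animals with r = 0.69.

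J-domain proteins of class A were led by the mitochondrial DNAJA3, with 13.9, 23.6 and 44.1 FPKM in the lowest, median and highest animal. DNAJA1, a general HSP70 co-chaperone of the cytosol (chr10:33430985-33445584), had a median of 17.1 FPKM but ran from 2.16 to 109. DNAJA2 stayed between 7.17 and 26.8 FPKM around 15.7. DNAJA4 had a median of 4.35 FPKM, reached 44.2 and was listed at 0.00418 in the lowest animal. DNAJA1 overlaps SMU1 (10654 bases) and DNAJA4 overlaps WDR61 (5384) on the other strand.

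In class B, DNAJB6, a Z-disc co-chaperone whose mutation causes a muscular dystrophy, was highest and steady at 50.5, 87.0 and 173 FPKM. DNAJB1, the HSP40 partner of stress-induced HSP70, had a median of 42.5 FPKM (12.1 to 199). DNAJB4 had a median of 19.3 FPKM (2.56 to 91.7). DNAJB2 (18.8), DNAJB5 (13.2), the ER proteins DNAJB9 (13.2) and DNAJB12 (10.5) and DNAJB14 (0.984) followed by median.

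Class C holds 24 members of many functions. DNAJC7, which binds both HSP70 and HSP90, was highest with a median of 47.2 FPKM (11.8 to 83.3). DNAJC21, which serves ribosome assembly (chr16:20523945-20551730), had a median of 34.0 FPKM (3.07 to 66.8). DNAJC19, a part of mitochondrial import, had a median of 20.3 FPKM (6.56 to 35.3). The endosomal DNAJC13 was listed at 0 in 15 animals, DNAJC6 in 3 and DNAJC27 in 1, where an exact 0 can be a failed estimate.

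The remaining class C medians lay between 0.336 FPKM (DNAJC6) and 13.2 FPKM (DNAJC5, the cysteine string protein of vesicles). HSPBP1 (median 8.06 FPKM), a nucleotide exchange factor of HSP70, and HSPBAP1 (1.03) were caught by their prefix and are not heat shock proteins themselves.

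**Figure D1:**
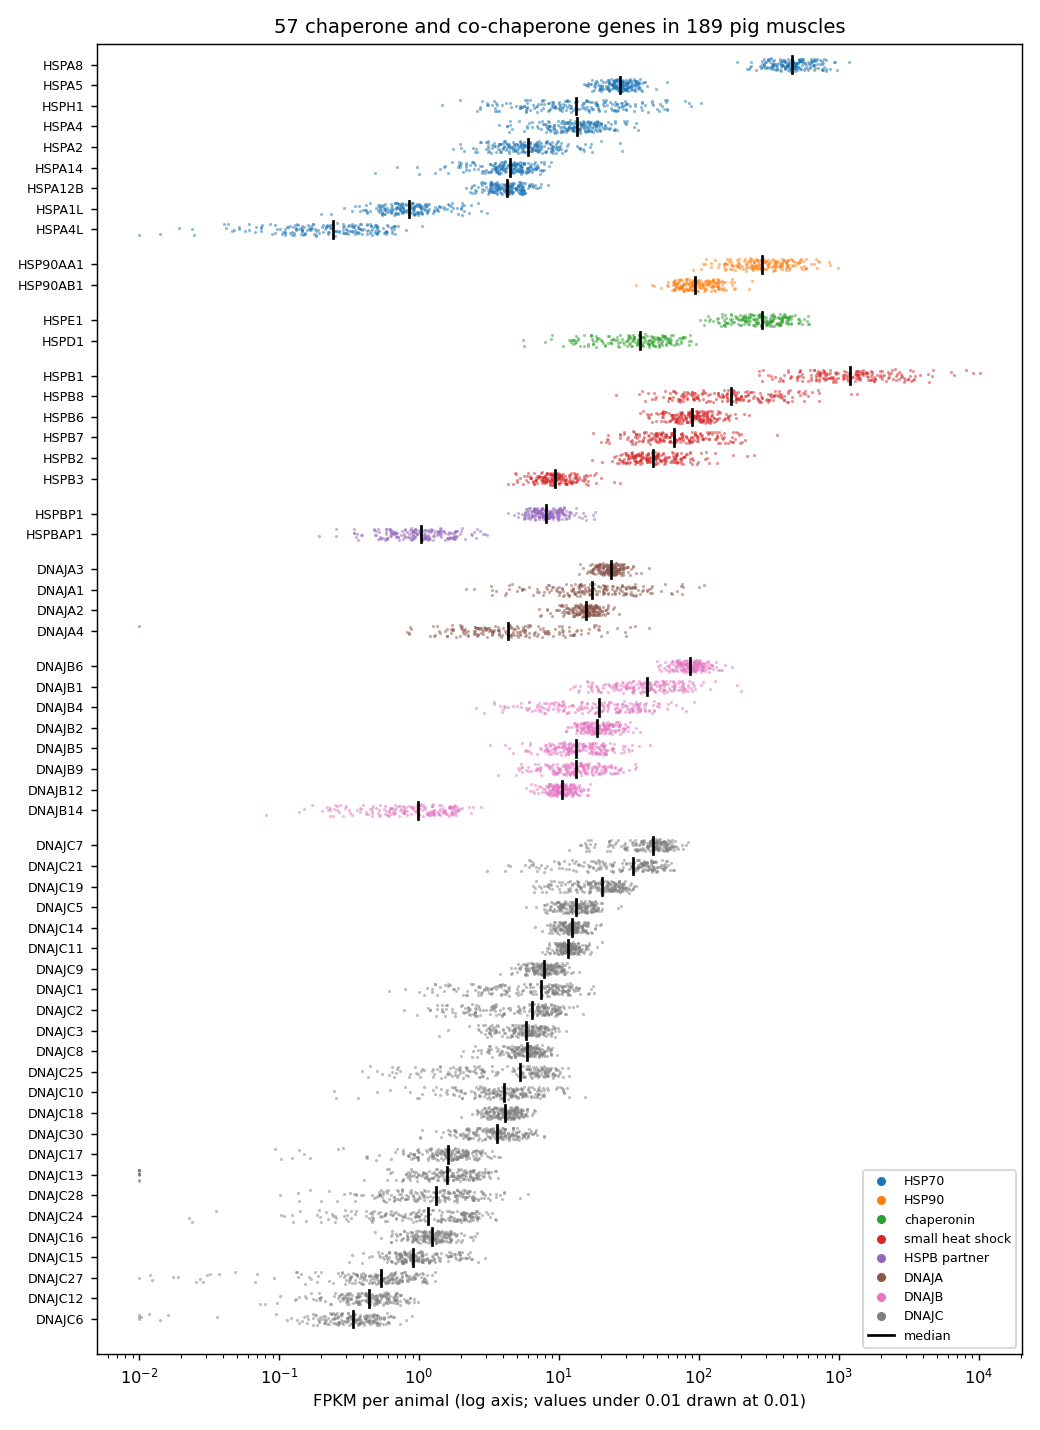
FPKM of each of the 57 genes (log axis) in 189 animals, 1 point per animal, grouped by class, with the median as a black bar. HSPB1 lies highest, with a median of 1193 FPKM, and HSPH1, HSPB8, DNAJA1 and DNAJB4 spread widely while DNAJC11 and DNAJB12 stay narrow.

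The spread between animals was taken as the SD over the 189 values of log2(FPKM + 1). It was above the all-gene median of 0.37 in 35 of the 54 tested members; the median over all 57 was 0.47. The 57 members had a median mean level of 10.6 FPKM against 4.16 of all tested genes. Low levels compress this scale, and the part of level in the difference was not tested. HSPH1 varied most (SD 1.11 log2 units), and 0.840% of tested genes varied more. HSPB8 (1.06), HSPB1 (1.03) and DNAJB4 (1.02) followed, then DNAJA4 and DNAJA1 (0.97 each), DNAJC21 (0.94), DNAJC25 (0.87), DNAJC1 (0.83) and HSPB7 (0.80).

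The smallest spreads were those of the untested DNAJC6 (0.17), DNAJC12 (0.18) and HSPA4L (0.20), whose low levels compress this scale. Of the tested members, DNAJC11, a mitochondrial outer membrane protein, varied least (0.22, from 7.62 to 20.3 FPKM). The widely varying genes peaked in a few animals. Library 184 was highest for HSPH1, HSPB1, HSPB8 and DNAJB9, library 92 for HSPA8, HSPB2, HSPB7 and DNAJA4, and library 117 for DNAJA1 and DNAJB4. Library 104 was highest for 8 members, among them HSPE1 and DNAJC2, and library 63 for 6, among them HSP90AA1 and DNAJB1.

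Which members moved together was asked over the 189 animals on log2(FPKM + 1), after the mean of the marked and of the unmarked libraries was removed. Of 1431 pairs, 913 passed a 2-sided permutation test of Pearson's r with 100000 resamples and Benjamini-Hochberg adjustment, 753 with a positive and 160 with a negative r. Spearman's rho passed in 922 pairs and both did in 886. The weakest r that passed was 0.156 in size, and among all 57421686 pairs of tested genes 37.4% were at least that positive and 15% at least that negative. An r over 0.7 was found in 103 member pairs, 7.20% of them, against 2.26% of all gene pairs. An r under -0.5 was found in 10 pairs, 0.699%, against 0.741% of all gene pairs. The median r was 0.179 over member pairs and 0.0786 over all gene pairs.

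The matrix of these correlations showed a large block of J-domain genes and a block around HSPH1 and the small heat shock proteins. In the first block, DNAJC2, a ribosome-associated co-chaperone, and DNAJC21 had the highest r of all pairs (r = 0.93, rho = 0.91). DNAJC1 and DNAJC2 (r = 0.92), DNAJC2 and DNAJC25 (0.91), DNAJB14 and DNAJC2 (0.91), DNAJC1 and DNAJC25 (0.91), DNAJC21 and DNAJC7 (0.90) and DNAJC1 and DNAJC21 (0.90) came next. DNAJA1 with HSPA4 (r = 0.90, rho = 0.89) completed the 8 highest. Each of these had an adjusted permutation p of 2.47e-05 from a raw p of 1e-05, the smallest the permutations can give. In the 168 unmarked libraries alone r was 0.93 for DNAJC2 and DNAJC21 and 0.91 for DNAJA1 and HSPA4, and without the 2 animals farthest from the median of the first gene r was 0.92 and 0.90.

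**Figure D2:**
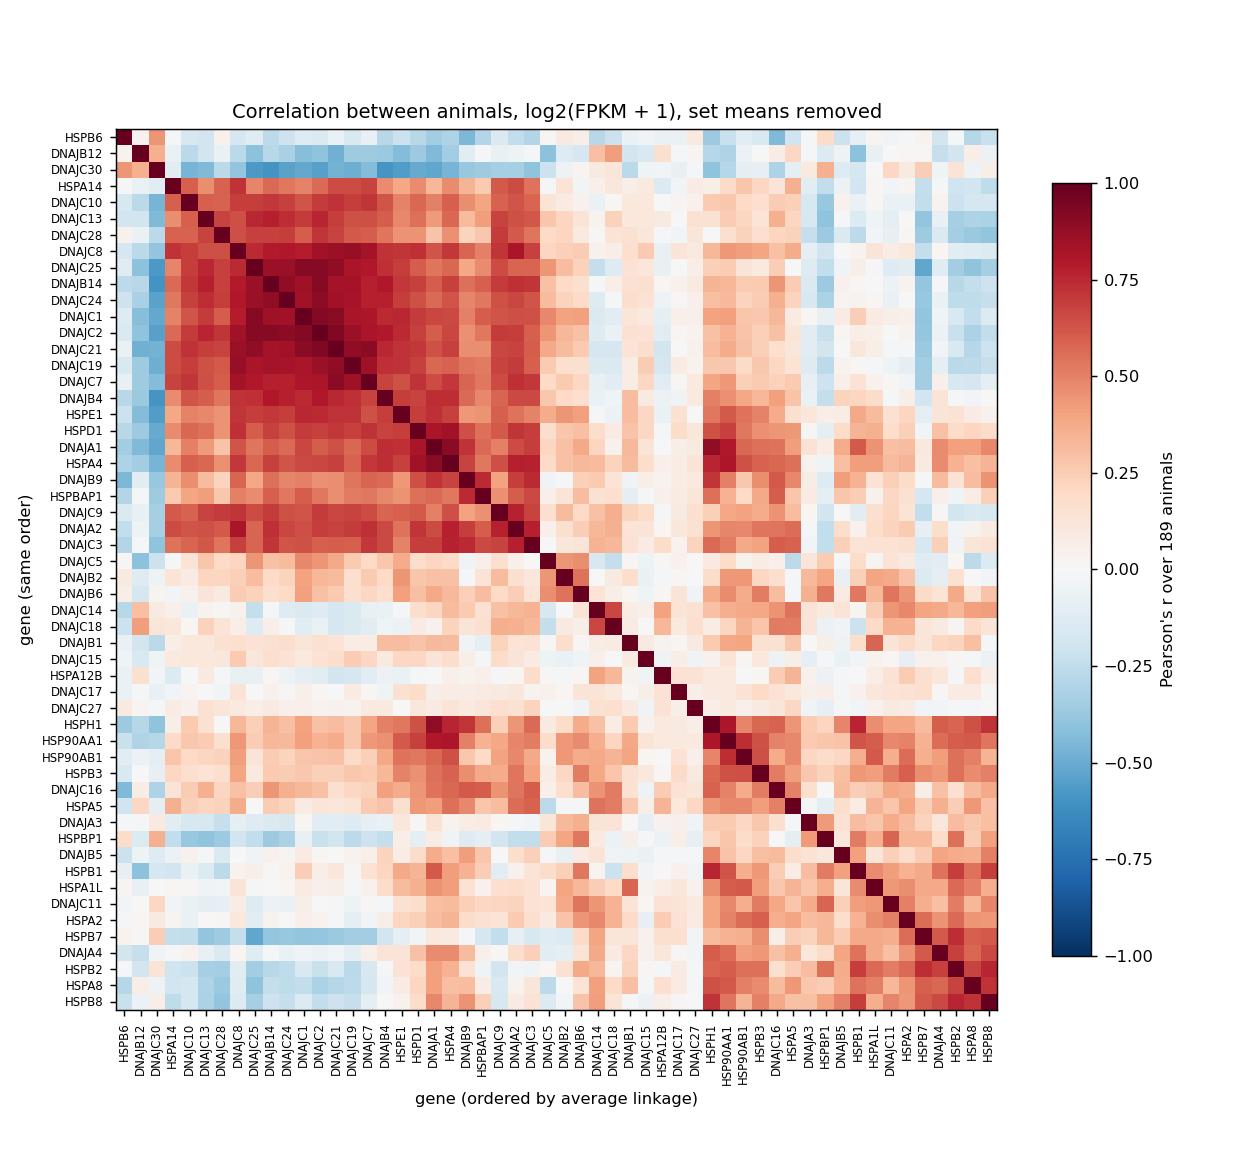
Pearson's r over 189 animals for each pair of the 54 tested genes (red positive, blue negative), log2(FPKM + 1) with set means removed and genes ordered by average linkage. A block led by DNAJC2 and DNAJC21 (r = 0.93) and another of HSPH1, HSPA8 and small heat shock genes stand out, and the rows of HSPB6, DNAJB12 and DNAJC30 are mostly blue.

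Around HSPH1 stood genes of several classes, not all of them close to the small heat shock genes. HSPH1 followed DNAJA1 (r = 0.89, rho = 0.87), HSP90AA1 (0.81 and 0.79), HSPB1 (0.76 and 0.75), HSPA4 (0.76 and 0.73), HSPB8 (0.72 and 0.72) and DNAJB9 (0.71 and 0.72). HSPB8 was highest with HSPB2 (r = 0.76), and then with HSPH1 and HSPA8 (0.72 each) and HSPB1 (0.69). HSPB2 also followed HSPB7 (0.74) and HSPB1 (0.69). Every pair in these 3 sentences had an adjusted permutation p of 2.47e-05, and r in the unmarked libraries alone lay between 0.67 (HSPB1 and HSPB2) and 0.88 (DNAJA1 and HSPH1). HSPA4 had lower r with HSPB8 (0.34), HSPB2 (0.34) and HSPB7 (0.09) than with HSPD1 (0.84). DNAJB9 likewise had 0.45, 0.15 and -0.01 with HSPB8, HSPB2 and HSPB7, against 0.75 with DNAJC3.

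DNAJB1 had no r over 0.7. Its highest r was with HSPA1L (r = 0.58, rho = 0.60), followed by HSP90AB1 and HSP90AA1 (0.39 each). DNAJA4 was highest with HSPB2 (0.68), HSPB8 (0.66) and HSPB7 (0.62). In the ER, HSPA5 was highest with DNAJC3 (r = 0.59, rho = 0.56), an ER co-chaperone of HSPA5, and DNAJC3 in turn with DNAJA2 (0.78), HSPA4 (0.77) and DNAJB9 (0.75).

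Some members had more negative than positive calls with other members. DNAJC30, a mitochondrial protein (chr3:10959229-10959909), had the lowest r of all pairs with DNAJB14 (r = -0.59), DNAJB4 (-0.59) and DNAJC25 (-0.57), each at an adjusted permutation p of 2.47e-05. Over its 53 pairs, 28 were negative and 5 positive by the test. HSPB6 had 25 negative and 2 positive pairs and DNAJB12 24 and 5. Of all pairs of tested genes, 15% were at least as negative as the weakest r that passed and 37.4% at least as positive. The share for each of these 3 genes with all tested genes was not taken, so these counts are not read as particular to members. HSPB6 and DNAJC30 followed each other (r = 0.445, rho = 0.43). DNAJC17 passed in 3 pairs, DNAJC27 in 4 and DNAJC15 in 9, all positive.

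**Figure D3:**
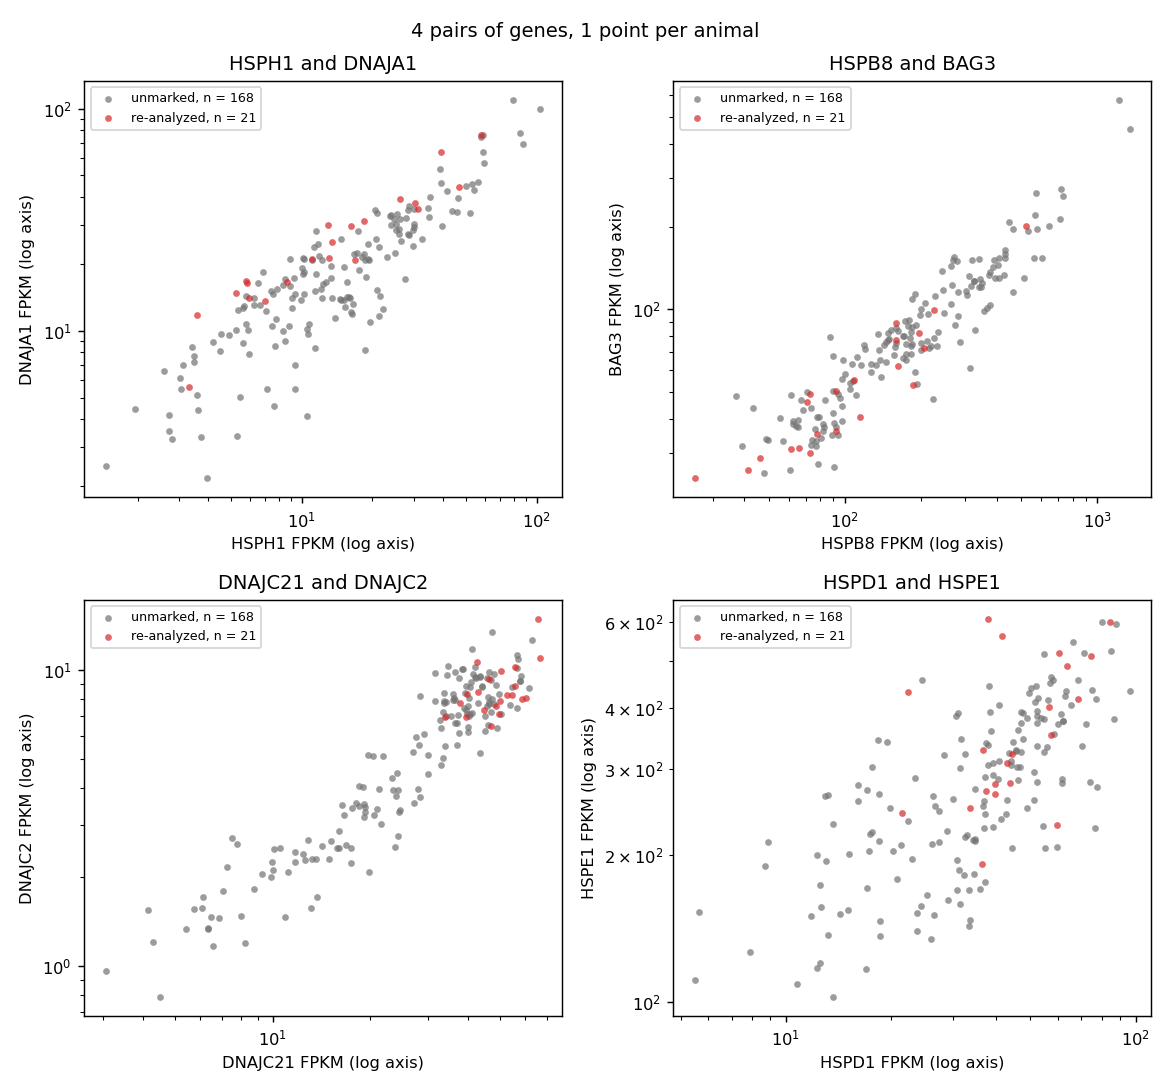
FPKM of 4 gene pairs (log axes), 1 point per animal, re-analyzed libraries in red (21) and unmarked in grey (168). HSPH1 and DNAJA1 (r = 0.89), HSPB8 and BAG3 (r = 0.93) and DNAJC21 and DNAJC2 (r = 0.93) rise together, and HSPD1 and HSPE1 less closely (r = 0.69).

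The other proteins of the chaperone network were read from lists of heat shock factors (4 of 4 genes measured), HSP70 cofactors (12 of 12), HSP90 cofactors (20 of 20), the TRiC chaperonin and prefoldin (12 of 14) and ER folding (13 of 13), with CRYAB apart. Of 3348 relations of members with these genes, 2207 passed the permutation test with Benjamini-Hochberg adjustment, and 55.1% of the relations of all tested genes with these genes had an r of that size. HSPB8 had its highest r with BAG3, the scaffold it works with (r = 0.93, rho = 0.92, adjusted permutation p = 2.84e-05). Among all 10717 genes BAG3 was also the one most like HSPB8, and UCK2 (r = 0.85) and the kinase DAPK3 (0.85) came next. An r over 0.7 with BAG3 was found in 5 of 54 members, against 0.541% of all genes. BAG3 was positive with 25 and negative with 13 members, against 23% and 32.3% of all genes at the same size of r.

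Some cofactors of HSP90 and a TRiC subunit followed members closely, and those named here were picked by their high r. HSP90AA1 was highest with AHSA1, which speeds the ATP use of HSP90 (r = 0.90, rho = 0.90), and HSP90AB1 with the TRiC subunit CCT4 (r = 0.81, rho = 0.80). CHORDC1, a HSP90 cofactor induced by heat, was closest to DNAJA1 (r = 0.92, rho = 0.92) and to HSPA4 (0.91 and 0.90). All 4 had an adjusted permutation p of 2.84e-05. An r over 0.7 was reached by 3 members with AHSA1, against 0.112% of all genes, and by 19 with CHORDC1, against 9.33%. Other HSP90 cofactors had mixed signs. TRAP1 ran from -0.50 with DNAJA1 to 0.635 with DNAJC30, and CDC37 from -0.64 with DNAJC25 to 0.52 with HSPB7.

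Some genes of TRiC and prefoldin, which fold actin and tubulin, followed members of both blocks, and those named were picked by their high r. CCT3, CCT7, TCP1 and PFDN2 had no r over 0.7 with any member. DNAJC21 had an r over 0.9 with 151 of all tested genes, so a high r with it is not particular to prefoldin. The prefoldin genes PFDN4 (r = 0.95, rho = 0.93) and VBP1 (0.94 and 0.90) followed DNAJC21, and CCT5 followed HSPB2 (0.83 and 0.81) and CCT8 followed HSP90AA1 (0.84 and 0.84). In the ER, HSPA5 was highest with the disulphide isomerase PDIA3 (r = 0.83, rho = 0.80), and DNAJC3 with ATF6, a sensor of unfolded proteins (0.86 and 0.87). Each adjusted permutation p was 2.84e-05.

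Of the heat shock factors, the transcript of HSF1, the main factor of the heat response, gave no call with HSPH1 (r = -0.03, rho = -0.05, adjusted permutation p = 0.717). HSF1 was positive with 13 and negative with 19 members, against 22.9% and 33.1% of all genes, and highest with HSPBP1 (r = 0.65, rho = 0.58). HSF2 was positive with 42 and negative with 2, against 44.6% and 17.4% of all genes. Its highest members were DNAJB9 (r = 0.80, rho = 0.81), DNAJA1 (0.76 and 0.69) and HSPH1 (0.75 and 0.71), each at an adjusted permutation p of 2.84e-05. HSF1 is known to be switched on at the level of its protein, which was not measured.

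CRYAB, a small heat shock protein by structure, moved only weakly with the family. Its highest r was with HSPB2, whose gene it overlaps (r = 0.37, rho = 0.38, adjusted permutation p = 2.84e-05). It was 0.32 with HSPB1, 0.31 with HSPB8 and 0.25 with HSPB7. With HSPB6 r was -0.10 (adjusted permutation p = 0.202), which did not pass.

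Some of the variation in the table was shared by many genes. The first principal component of all 10717 genes held 23.4% of their variance, and 19 of 54 members had an r over 0.7 with it, against 19.4% of all genes. DNAJB14 (r = 0.95), DNAJC2 (0.94), DNAJC25 (0.91), DNAJC24 (0.89) and DNAJC21 (0.89) were closest to it. The lowest r with it among tested members was that of DNAJC30 (-0.55), and DNAJB12 (-0.29) and HSPB6 (-0.20) were negative too. The r with the number of genes at 1 FPKM or more in the library was 0.84 for DNAJB14 and 0.78 for DNAJC2. DNAJC21 had an r over 0.7 with 1507 genes and over 0.9 with 151. The part of the number of detected genes in these relations was not tested.

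HSPH1 and the most abundant small heat shock genes followed that component less. Other genes that followed HSPH1 stood closer to it, HSPA4 at r = 0.72, DNAJA1 at 0.61 and DNAJB9 at 0.50. The r of HSPH1 with the component was 0.29, that of HSPB1 -0.04, of HSPB8 -0.28 and of HSPA8 -0.29, and HSPH1 had an r over 0.7 with 56 genes and over 0.9 with none. The genes most like HSPH1 over the 189 animals were DNAJA1 (r = 0.89), RNF115 (0.87), AMD1 (0.85), HIRA (0.82) and the filamin FLNC (0.81).

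With the component removed, a step chosen after seeing the data, some named pairs rose, some held and some fell. HSPH1 then had an r of 0.93 with DNAJA1, 0.88 with HSPB8, 0.82 with HSPA4, 0.81 with HSPB1 and 0.92 with BAG3, each higher than before. HSPB8 with BAG3 was at 0.92 and HSP90AA1 with AHSA1 at 0.91. DNAJC2 with DNAJC21 stood at 0.60, DNAJB14 with DNAJC2 at 0.22 and HSPD1 with HSPE1 at 0.38. Pairs with an r over 0.7 numbered 28 instead of 103. They numbered 51 after each library was shifted to the same median and 56 after quantile normalization. The share of all gene pairs over 0.7 was not taken under these settings, so these counts are not read as particular to members.

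**Figure D4:**
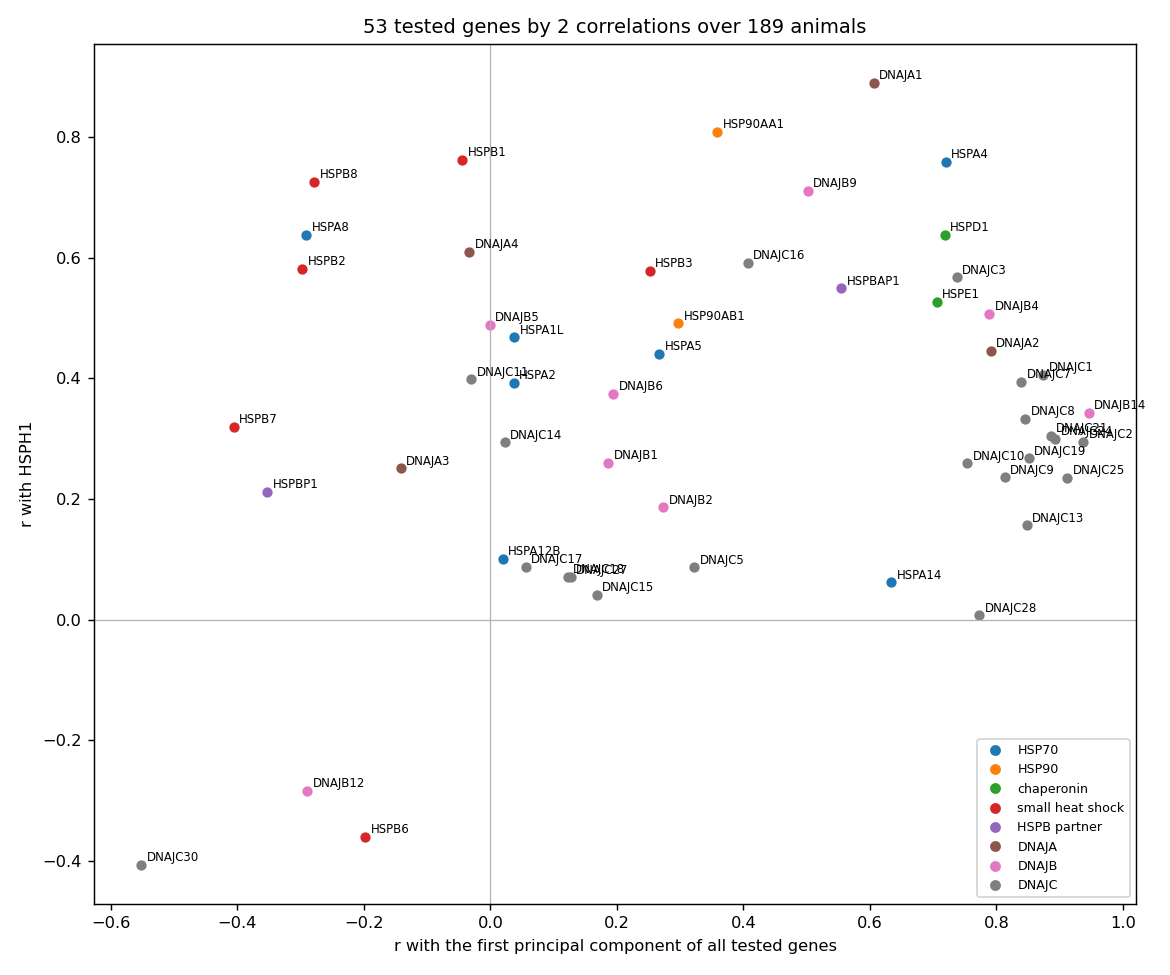
Each of 53 tested genes by its r with the first principal component of all tested genes (x axis) and its r with HSPH1 (y axis), over 189 animals, coloured by class. HSP90AA1, HSPB1 and HSPB8 lie high at middle or negative x, and DNAJA1 (0.61) and HSPA4 (0.72) lie high farther right. Most DNAJC genes lie at the right with r of 0.7 to 0.95 with the component.

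Whether members followed the cell make-up of the sample was read from marker scores, the mean z-score of a list, over 378 relations with Benjamini-Hochberg adjustment of the permutation p. The fast fibre score (8 genes) was negative with 38 members and positive with 0, against 58.5% and 4.08% of all genes at the same size of r. HSP90AB1 (r = -0.65, rho = -0.64), DNAJC9 (-0.57 and -0.61) and HSPA4 (-0.57 and -0.59) were lowest, each with an adjusted permutation p of 5.82e-05. After a median shift the score was negative with 25 and positive with 17 members, and after quantile normalization with 21 and 7, so the uniform sign among members depends on the scaling. The shares of all genes were not taken under other settings, for this score or for those below. HSP90AB1 was still negative under both (-0.29 and -0.49), as were DNAJC9 (-0.33 and -0.21) and HSPA4 (-0.49 and -0.29). With the first principal component removed, r was -0.60 for HSP90AB1, -0.22 for DNAJC9 and -0.26 for HSPA4.

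The slow fibre score (8 genes) passed with 7 members, 1 positive and 6 negative, against 5.5% and 8.01% of all genes. The positive one was HSPB6 (r = 0.37, rho = 0.37, adjusted permutation p = 5.82e-05), at 0.39 in the unmarked libraries. A median shift gave 11 positive and 15 negative, and quantile normalization 5 and 18. HSPB6 kept its sign in all of these.

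Outside the fibre scores, the highest r was that of HSPA12B with the endothelial score (6 genes, r = 0.61, rho = 0.57, adjusted permutation p = 5.82e-05, 0.58 without the 2 farthest animals and 0.62 in the unmarked libraries). The endothelial score passed with 6 positive and 14 negative members, against 30.6% and 8.1% of all genes, with 11 and 29 after a median shift and with 9 and 28 after quantile normalization. The macrophage score (6 genes) passed with 12 and 21, against 29.5% and 32.9%, among them HSPA8 (r = 0.45, rho = 0.40) and DNAJC21 (-0.54 and -0.58). After a median shift it passed with 20 and 22, after quantile normalization with 19 and 23, and with the first principal component removed with 20 and 7, so the balance of signs among members depends on the processing.

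The adipocyte score (6 genes) passed with 8 positive and 7 negative members, against 33.2% and 6.01% of all genes. After a median shift it passed with 9 and 22, and after quantile normalization with 7 and 19. DNAJC14 (r = 0.46, rho = 0.42) and HSPA5 (0.45 and 0.34) were highest, at 0.42 and 0.39 without library 39. The collagen and fibroblast score (7 genes) passed with 6 and 18, against 23.4% and 21.2%, and the red blood cell score (2 of 4 genes measured) with 3 and 9, against 11.8% and 8.82%. After a median shift these became 10 and 26 for collagen and 12 and 21 for red blood cells, and after quantile normalization 7 and 24, and 7 and 19.

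Whether chaperone levels followed IMF was asked in 164 animals, with the mark as a covariate. No member of 54 passed limma at a Benjamini-Hochberg adjusted p under 0.05, against 0.084% of all genes (9 rising and 0% falling). At an unadjusted p under 0.05 there was 1 member, HSPE1 (slope 0.07 on the log2 scale for each unit of IMF, SE 0.0375, adjusted p = 0.961 by limma), against 4.92% of all genes. Slopes were positive in 44 of 54 members (81.5%) and in 74.6% of all genes, with medians of 0.03 and 0.01. Of the adipocyte markers 4 of 6 rose with IMF in the same fit, and 0 genes of the 5 partner lists passed. On simulated data this fit recovered 57.5% of slopes of 0.1. The lack of calls therefore does not exclude slopes of that size or smaller.

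Within the re-analyzed libraries, 10 of high and 11 of low IMF were compared. HSPE1 measured 244, 459 and 598 FPKM (lowest, median, highest) at high and 192, 280 and 609 FPKM at low IMF, and the groups overlapped over most of their range. Its difference was 0.47 log2 units (SE 0.183, limma adjusted p = 0.986), and DNAJC21 had 0.24 (SE 0.107, adjusted p = 0.986). Again 0 of 54 members passed, against 0.084% of all genes, and 2 members had an unadjusted p under 0.05, against 4.43% of all genes. On simulated data this fit recovered 18% of differences of 0.5 log2 units and 87% of differences of 1. The lack of calls therefore does not exclude differences of the size seen for HSPE1. HSPB1 ran from 284 over 1232 to 8111 FPKM at high and from 718 over 958 to 2761 FPKM at low IMF, so the spread exceeded the difference. A difference in the slope between marked and unmarked libraries was called by limma for 0 of 54 members and 0% of all genes, with 0 members and 1.64% of all genes at an unadjusted p under 0.05.

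Animals with the same 9-digit title code were compared by a moderated F test over 48 codes and 146 animals, with the intraclass correlation (ICC) as the share of variance between codes. No member passed (limma with Benjamini-Hochberg adjustment), against 1.82% of all genes, and 8 members had an unadjusted p under 0.05, against 18.8% of all genes. DNAJC15, a mitochondrial co-chaperone, came nearest (ICC 0.26, limma adjusted p = 0.0605), followed by DNAJC18 (0.26), DNAJC16 (0.23), DNAJB5 (0.20) and HSPBP1 (0.18). The lowest were DNAJC21 (-0.14), DNAJC7 (-0.13), DNAJC19 (-0.13), HSPA2 (-0.12) and DNAJB1 (-0.10). The HSP70 cofactors BAG2 (ICC 0.29, adjusted p = 0.0262) and STUB1, the ubiquitin ligase CHIP (0.32, adjusted p = 0.0348), were called from the partner lists.

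The start of the code split the animals into 69 with 15 and 120 with 16, and 3 of the 6 small heat shock genes (HSPB8, HSPB7 and HSPB2) were higher in the latter. HSPB8 measured 25.6, 107 and 644 FPKM (lowest, median, highest) with code 15 and 39.2, 195 and 1340 FPKM with code 16. HSPB7 measured 17.6, 53.5 and 175 FPKM against 22.2, 80.5 and 359 FPKM. The groups overlapped over most of the range of both genes, and the medians differed.

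With the mark as a covariate and the code as a random block (limma, correlation within codes 0.0331) and Benjamini-Hochberg adjustment, 7 of 54 members passed, against 11.8% of all genes. Of these 4 were higher with code 16, against 1.57% of all genes, and 3 lower, against 10.2%. The higher ones were HSPB8 (0.64 log2 units, SE 0.154, adjusted p = 0.00856), HSPB7 (0.48, SE 0.116, adjusted p = 0.00852), HSPB2 (0.34, SE 0.0909, adjusted p = 0.0149) and DNAJA4 (0.51, SE 0.146, adjusted p = 0.0184). Of the 6 small heat shock proteins 3 rose, and HSPB1 (0.37, adjusted p = 0.0979), HSPB3 (0.11) and HSPB6 (0.06) did not pass.

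HSPB2 had medians of 37.9 FPKM (20.3 to 111) and 49.9 FPKM (17.3 to 247) with codes 15 and 16, and DNAJA4 3.01 FPKM (0.847 to 32.3) and 4.97 FPKM (0.00418 to 44.2). The lower members were HSPA14 (-0.27, SE 0.0700, limma adjusted p = 0.0143), DNAJC21 (-0.40, SE 0.135, adjusted p = 0.036) and DNAJC8, a splicing factor (-0.16, SE 0.053, adjusted p = 0.0367). HSPA14 had medians of 4.76 FPKM (1.72 to 8.48) and 3.99 FPKM (0.488 to 8.77). DNAJC21 had medians of 38.9 FPKM (6.33 to 66.8) and 28.5 FPKM (3.07 to 65.7).

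BAG3 rose with the small heat shock proteins (0.45, SE 0.123, limma adjusted p = 0.0159), from a median of 59.0 FPKM (24.2 to 201) to 79.3 FPKM (27.4 to 578). Of 12 HSP70 cofactors BAG2 (0.27) and BAG3 were higher and ST13 (-0.33) was lower. Of 20 HSP90 cofactors 1 was higher, STIP1, which links HSP70 to HSP90 (0.32, adjusted p = 0.0212). The heat shock factor HSF4 (-0.54) and the prefoldins VBP1 (-0.36) and PFDN4 (-0.36) were lower, and 0 of 13 ER folding genes passed.

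Some marker transcripts of cell and fibre types differed with the code as well. Of 6 macrophage markers 5 were higher (C1QA, C1QB, C1QC, CSF1R and CD68), with summed levels of 6.15 to 86.3 FPKM (median 26.0) with code 15 and 11.4 to 93.1 FPKM (median 34.6) with code 16. Of 6 endothelial markers VWF was lower and of 8 fast fibre markers MYBPC2 was, and 0 adipocyte, collagen, slow fibre and red blood cell markers passed. A gene of the macrophage list was at 0 in at least 1 library. The part of these cells in the result was not tested. The call of DNAJC8 was lost after a median shift (adjusted p = 0.0643), after quantile normalization (0.0644) and without library 39 (0.0522), all by limma. Those of DNAJC8 and DNAJC21 were lost with IMF as a covariate and when only the most frequent 4-digit start under each of 15 and 16 was compared (59 and 116 animals), and all 7 were lost with the first principal component as a covariate (HSPB8 0.54, adjusted p = 0.076).

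The 21 re-analyzed libraries were compared with the 143 unmarked ones at the same IMF (limma, Benjamini-Hochberg), which measures how the sets stand apart. Many genes differed, 41.1% of all tested, and 22 of 54 members did. Of these 15 were higher, against 18.3% of all genes, and 7 lower, against 22.7%. What the mark stands for is not stated, so a batch and the mark cannot be told apart.

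HSPA12B had the smallest adjusted p. It measured 2.32, 2.92 and 4.55 FPKM (lowest, median, highest) in the re-analyzed and 2.18, 4.30 and 8.32 FPKM in the unmarked libraries, and the highest re-analyzed value lay near the unmarked median. The difference was -0.44 log2 units (SE 0.064, limma adjusted p = 2.41e-08). Of 6 endothelial markers KDR (-0.71), CDH5 (-0.84) and PECAM1 (-0.64) were lower too, and their summed level ran from 34.0 to 77.3 FPKM (median 50.6) in the re-analyzed and from 33.5 to 115 FPKM (median 67.9) in the unmarked libraries. No endothelial marker was at 0 in any library. The part of endothelial cells in the fall of HSPA12B was not tested.

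The other lower members were DNAJC14 (-0.30, limma adjusted p = 6.49e-06), DNAJB12 (-0.26), DNAJC18 (-0.20), DNAJC17 (-0.31), HSPB8 (-0.70, SE 0.246, adjusted p = 0.0156) and HSPB7 (-0.46, adjusted p = 0.0332). HSPB8 had medians of 92.6 FPKM (25.6 to 523) and 175 FPKM (37.2 to 1340). The call of HSPB7 was lost after a median shift (limma adjusted p = 0.0541) and with the first 4 code digits as a factor (0.0698). BAG3 was lower as well (-0.61, adjusted p = 0.00727), and all 6 macrophage, 7 collagen and 2 red blood cell markers and 5 of 6 adipocyte markers were lower. The summed macrophage level ran from 6.15 to 34.9 FPKM (median 22.4) in the re-analyzed and from 10.5 to 93.1 FPKM (median 31.6) in the unmarked libraries, and its part in these results was not tested.

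Higher members came mostly from class C. DNAJC19 measured 22.5, 28.7 and 35.3 FPKM in the re-analyzed and 6.56, 19.3 and 34.1 FPKM in the unmarked libraries, so that every re-analyzed library exceeded the unmarked median (0.62 log2 units, SE 0.117, limma adjusted p = 1.12e-05). DNAJC21 measured 34.0, 49.8 and 66.8 FPKM against 3.07, 32.8 and 62.9 FPKM, again with every re-analyzed library over the unmarked median (0.90, SE 0.206, adjusted p = 0.000229). DNAJB4 (0.79), DNAJC2 (0.67), DNAJC1 (0.67), DNAJC25 (0.61), DNAJC24 (0.51), HSPA14 (0.42), DNAJC8 (0.33), DNAJB2 (0.25) and HSPA1L (0.25) were also higher, as were DNAJB1 (0.46), DNAJC7 (0.39), HSPE1 (0.38) and DNAJC5 (0.24).

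From the partner lists, the heat shock factor HSF4 (1.02, limma adjusted p = 6.99e-05), the cofactors STUB1 (0.34) and BAG1 (0.30) and the prefoldins PFDN4 (0.87) and VBP1 (0.73) were higher, and SMYD1 (-0.63), which works on myosin assembly, and the ER protein PDIA3 (-0.41) were lower. HSP90AA1 (0.22), HSP90AB1 (0.15), HSPB1 (0.11) and HSPH1 (-0.05) did not pass. With the first principal component as a covariate 30 members passed instead of 22. The share of all genes under that setting is not given here.

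**Figure D5:**
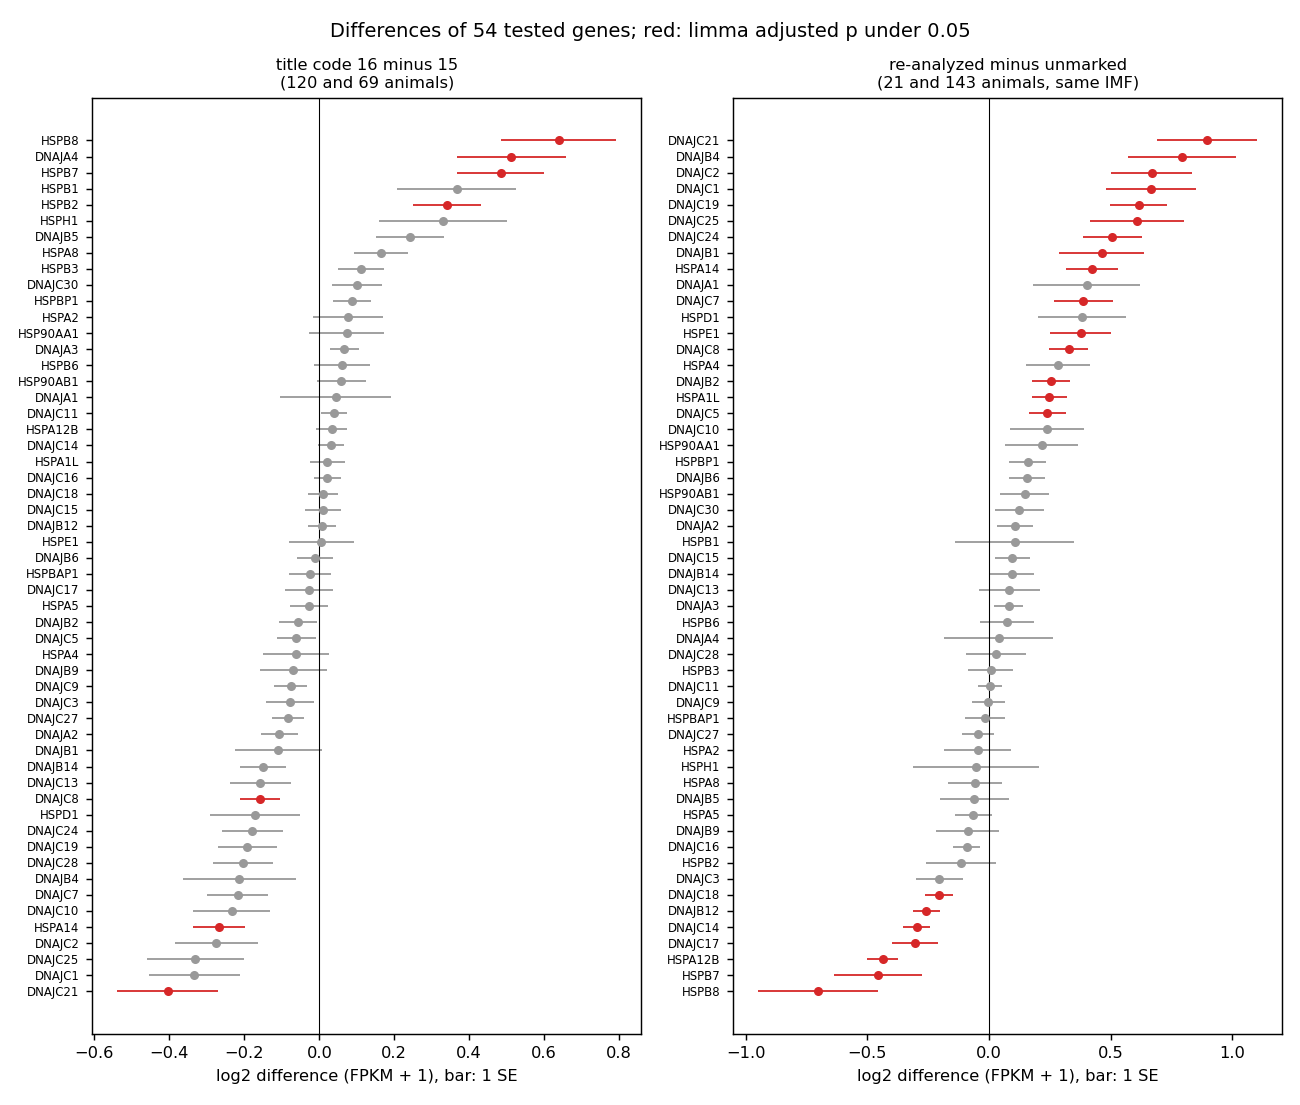
Differences of the 54 tested genes in log2(FPKM + 1), with bars of 1 SE and limma adjusted p under 0.05 in red, for title code 16 minus 15 (120 and 69 animals, left) and re-analyzed minus unmarked at the same IMF (21 and 143 animals, right). HSPB8 is highest on the left (0.64) and lowest on the right (-0.70), and DNAJC21 the reverse (-0.40 and 0.90); both fits use the same unmarked animals.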

How the data were processed

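Muscle RNA of 189 pigs was analysed. The authors deposited 1 table of transcripts with a value per animal. Its header names no unit, and FPKM was inferred from the layout and is what the deposited values are taken to be. HISAT2 2.0.5, StringTie 1.3.3 and the build Sscrofa11.1 are named, without their settings, per the submitters' processing notes. For the annotation release and filters the sources used here state nothing. The depth is unknown, so no counting interval is given.

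Transcripts (18114) were summed per gene identifier to 12651 genes, and those with a mean of at least 0.5 FPKM were tested on log2(FPKM + 1), a scale that understates changes of low genes. Groups were compared with limma 3.58.1 in R 4.3.3 over all tested genes with Benjamini-Hochberg adjustment and a threshold of 0.05. Correlations used 100000 2-sided permutations, adjusted over all relations of a family. Python 3.11.15, pandas 2.3.3, numpy 2.4.6, scipy 1.17.1 and matplotlib 3.10.9 were used. The fits were tested on simulated data with 200 changed genes. IMF slopes of 0.1 were recovered in 57.5% and slopes of 0.2 in 95%. For high against low IMF, 18% of differences of 0.5 log2 units were recovered, and 10% of the calls were false. Differences of 0.5 were recovered in 84% for re-analyzed against unmarked libraries and in 94% between title codes. The figure for the start of the code is not given here.

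The members and the partner and marker lists were chosen with earlier results of these data known. Named were the 3 highest members of each class by mean, the 10 most and 3 least variable, up to 10 called members in each direction of a comparison by adjusted p, the 8 highest and 3 lowest pairs, the 5 highest and lowest ICC and up to 8 called partners of a comparison. Other genes, pairs and partner relations named were chosen after their values were seen. Alternatives were another pseudocount, filters, scalings, covariates and left-out libraries. The labels do not give parentage, so p-values measure the spread between these animals, taken as independent. No sequences are shown.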

Additional observations from a re-analysis of the deposited data

Results flagged for a closer look

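Of 54 members, 9 (16.7%) had a library far from the others among the 10 re-analyzed libraries of high IMF, where chance flags about 1 group in 20 and the same rule flagged 9.03% of all 10717 tested genes. The flags are not independent, since members correlate, and library 160 was highest in 5 of them. It held 8111 FPKM of HSPB1 (next highest 3816), 523.3 of HSPB8 (225.9), 138.4 of HSPB7 (74.08), 131.3 of HSPB2 (66.43) and 34.69 of DNAJA4 (6.78). Library 59 was highest for DNAJB9 with 27.74 FPKM (next 14.47) and DNAJC7 with 81.46 (64.21), and lowest for DNAJC13, listed at 0 (next 1.345). Library 148 was highest for DNAJB5 with 33.05 FPKM (next 17.14). In the comparison of high with low IMF, leaving out each library in turn called 0 members in every one of 21 fits.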

How the results depend on the processing

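The count of members that differed between title codes 16 and 15 was 7, and became 11 (9 higher, 2 lower) after each library was shifted to the same median, 14 (4 higher, 10 lower) in the unmarked libraries only, 9 (7 higher, 2 lower) after quantile normalization and 0 with the first principal component as a covariate. Pairs with an r over 0.7 (103) became 51, 56 and 28 after the median shift, quantile normalization and removal of the component. Members called with the slow fibre score (7) became 26, 23 and 4 under the same settings. In the main fit 11.8% of all genes were called between the codes. Shares of all genes or gene pairs under the other settings are not given here, so these counts are not read as particular to members. The cause was not tested. The settings with the component were chosen after seeing the data. Over 447 recomputed values of single genes and pairs, 16 lost a call, in 8 results. With the component removed, 10 correlations became smaller by over 1.5 times, among them those of DNAJC2 and DNAJC21 (0.60) and of HSPD1 and HSPE1 (0.38) and the 3 lowest pairs, which stood at -0.20 to -0.29. The sign changed for HSPH1 and HSF1, which had no call (0.01 with code means removed and 0.04 with the component removed). Members called for high against low IMF numbered 0 to 0 in the leave-one-out fits (smallest limma adjusted p 0.219). No paired analysis by replicate number was possible because each number belongs to 1 animal. Animals that share a title code were compared with the code as a block and with code means removed. Without counts, depth sets no stated limit, and low genes are less precise.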

Other observations

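The 4 genes that carry a heat shock or DNAJ name only in the reference table had these levels over the 189 animals. HSPA9, the mitochondrial HSP70, ran from 25.7 over 58.5 to 119.5 FPKM. HSP90B1, the HSP90 of the ER, ran from 6.64 over 25.0 to 89.1 FPKM, highest in library 39. DNAJC4 ran from 3.87 over 9.43 to 17.4 FPKM and was higher in the re-analyzed libraries (0.23 log2 units, limma adjusted p = 0.00979). DNAJB11, an ER co-chaperone, ran from 1.70 over 3.77 to 7.05 FPKM.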
